A study of Mus musculus with 4 samples.

Results

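The keratins of simple epithelium were read on microarrays in sorted mouse skin epithelial cells, at passage 15 and without a passage: Krt7 and Krt8, which encode type II (basic) keratins, and Krt18, Krt19 and Krt20, which encode type I (acidic) keratins. They were chosen by name, as the gene probes that the array design calls Krt7, Krt8, Krt18, Krt19 or Krt20. This gave 5 genes on 6 probes, out of 31896 gene names on 39429 probes. Only Krt8 had more than 1 probe (2 probes).

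The cells came from skin epithelium of adult C3H/HeN mice and were sorted by flow cytometry for CD49f (integrin alpha 6) and CD34, surface proteins that together mark the hair follicle bulge. Sorted cells for which no passage is named gave the RNA labelled 0p. Cells re-sorted after serial cultures with Wnt-3a on collagen type I, up to passage 15, gave the RNA labelled 15p. Wnt-3a is listed as the treatment of both RNAs, so the labels do not separate the groups by it, and strain, age and sort markers are also shared. Each of 4 two-colour arrays held both RNAs, and each of 2 biological replicates was hybridised on 2 arrays with the Cy5 and Cy3 dyes exchanged. The array of each replicate with 15p in Cy5 is called forward here and that with 15p in Cy3 swapped. The comparison sets simple keratin transcripts of 15p cells against those of 0p cells. The labels do not say whether the replicates were separate animals or cultures, so the p-values measure only the spread between these replicates, which may be technical.

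A keratin filament is built from pairs of a type I and a type II chain, so each epithelium makes keratins of both types. One-layered and glandular epithelia rely on Krt8 and Krt18, the first keratins of the embryo, with Krt7 and Krt19 added in ducts and Krt20 in gut lining and the uppermost bladder cells. The basal layer of skin mainly uses Krt5 and Krt14 instead. In skin, Krt8, Krt18 and Krt20 mark Merkel cells, the touch receptor cells, and Krt19 is known from hair follicle bulge cells. A mixed sample cannot show whether a difference came from the share of cells of a type or from the RNA in each cell.

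The probes that the keratin results rest on are 60-base oligonucleotides. Printed are the 3 that have a reading frame free of stop codons over their whole length and lack the polyadenylation letters AATAAA. The test of Krt8 rests on its brighter probe, A_66_P128079, which is not printed. Capitals mark the longest stretch also found in a probe of another gene on the array. Transcripts were not searched, so this does not show how specific a probe is.
Krt7 (A_52_P410685): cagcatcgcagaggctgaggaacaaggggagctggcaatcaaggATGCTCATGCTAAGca
Krt8 (A_55_P2128501): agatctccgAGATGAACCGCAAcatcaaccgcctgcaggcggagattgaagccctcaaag
Krt19 (A_51_P356642): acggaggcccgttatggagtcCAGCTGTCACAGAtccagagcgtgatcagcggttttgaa

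These stretches were 14 bases in the Krt7 probe and 13 in the Krt8 and Krt19 probes. Over all 6 probes the longest such stretch was 15 of 60 bases, in the other Krt8 probe, and none of the 6 best matches listed was to a probe named as a keratin. Stretches with gaps or mismatches were not searched. The probes of Krt7, Krt18, Krt19 and the Krt8 probe shown were 55.0% G and C, against a median of 41.7% over all gene probes. The other Krt8 probe had 40.0% and the Krt20 probe 43.3%.

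In mouse build mm9, as the array files give it, the Krt7 probe lies at chr15:101253718-101253777 on the plus strand. Both Krt8 probes lie on the minus strand, A_55_P2128501 at chr15:101828827-101828886 and A_66_P128079 at chr15:101827138-101827197, 1689 bases further along the gene. The latter was designed to a cDNA clone (AK166854) and holds AATAAA, as did 12.6% of all gene probes. The Krt18 probe lies at chr15:101862341-101862400 on the plus strand. In the RefSeq annotation of GRCm38.p6 Krt8 and Krt18 are adjacent protein-coding genes, partners in the filament and neighbours on the chromosome. The Krt19 probe lies at chr11:100002392-100002451 and the Krt20 probe at chr11:99289776-99289835, both on the minus strand. Krt19 is listed next to Krt15, a bulge keratin, and Krt20 between Krt12 and Krt23. No mm9 annotation was used here, so exons and untranslated regions are not assigned.

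The 4 arrays were not equally quiet. Between 55.5% and 68.3% of gene spots were well above background by the scanner software's own call, with the highest shares on the swapped array of replicate 2. The SD of the log2 ratio of 15p over 0p across genes was 0.129 to 0.14 on 3 arrays and 0.289 on the forward array of replicate 2, where 108 genes were beyond 2-fold against 0 to 4 on the others. The forward and swapped arrays of a replicate were negatively correlated in 15p over 0p across genes (r = -0.554 in replicate 1 and -0.397 in replicate 2; genes are not independent replicates), so that Cy5 over Cy3 ratios were partly shared whichever RNA was labelled as being in Cy5. The dye labels could not be checked from the files, and every ratio of 15p over 0p rests on them: if the labels of 1 array in each pair were exchanged, its ratios would turn sign. The basal keratins Krt5, Krt14 and Krt15 and Itga6, which encodes CD49f, were well above background on all 4 arrays in both RNAs, while Cd34, which encodes the other sort marker, was so on 0 of 4 arrays in 15p and 1 of 4 in 0p.

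Krt8 was the simple keratin with a strong signal against its controls, Krt7, Krt18 and Krt19 were dim but above them, and Krt20 was at background. The Krt8 probe A_66_P128079 had 202 to 667 times a control level, the 95th percentile of 153 negative controls in the same dye and array, and the Krt8 probe A_55_P2128501 had 34.5 to 98.7 times. Signals of different probes depend on their sequences, so these figures set each probe against the controls only and give no order of the transcripts. Both Krt8 probes were well above background in 15p and in 0p on 4 of 4 arrays.

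Krt7 had 1.67 to 3.54 times the control percentile over the 4 arrays and both RNAs. Krt18, the partner of Krt8, had 1.63 to 3.17 times and Krt19 had 1.24 to 2.71 times. All 3 were called well above background on every array in both RNAs, with mean spot signals of 103.5 to 204 for Krt7, 94 to 183 for Krt18 and 70.9 to 156 for Krt19. No background was subtracted for these multiples. The negative controls had medians of 47.5 to 75.2 by array and dye, which draws multiples of dim probes toward 1. After background subtraction and dye normalisation by the scanner software, signals were 40.2 to 54.5 for Krt7, 48.7 to 62.9 for Krt18 and 14.8 to 35.1 for Krt19. Those of Krt20 were 2.13 to 9.54.

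Krt20 had 0.887 to 1.43 times the control percentile. It was well above background on 1 of 4 arrays, the swapped array of replicate 2, and there in both RNAs (1.23 times in 15p and 1.43 times in 0p). On the other 3 arrays its signal ran from 0.887 to 1.09 times, at the level of the negative controls. That array also had the largest share of gene spots above background, and its part in the Krt20 call was not tested. Krt20 did not pass the filter on dim probes, so it has no test and no fold in the main fit.

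**Figure D1:**
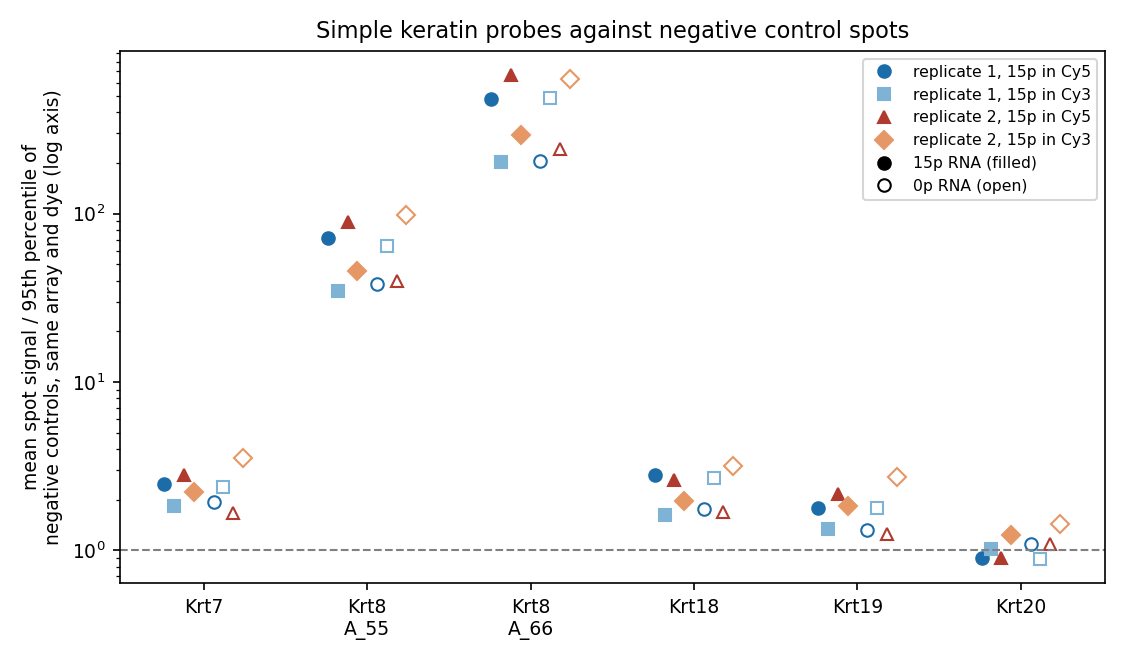
Mean spot signal divided by the 95th percentile of the negative controls of the same array and dye (log axis), for each of the 6 probes on 4 arrays; filled symbols are 15p RNA and open symbols 0p RNA. Both Krt8 probes lie far above the dashed line at 1, Krt7, Krt18 and Krt19 lie between 1.24 and 3.54, and Krt20 straddles the line. No background was subtracted from either signal.

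Levels of the simple keratins in 15p cells overlapped those in 0p cells for every probe. Levels are log2 of the signal in each dye after background correction and normalisation within and between arrays. The brighter Krt8 probe had 14.47 ± 0.16 in 15p and 14.44 ± 0.10 in 0p (SD, n = 2 replicates). On single arrays it ran from 14.32 to 14.61 in 15p and from 14.35 to 14.57 in 0p. The other Krt8 probe had 11.77 ± 0.087 in 15p and 11.78 ± 0.11 in 0p.

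Krt7 stood at 7.27 ± 0.098 in 15p and 7.20 ± 0.010 in 0p. Krt18 stood at 7.24 ± 0.024 in 15p and 7.23 ± 0.034 in 0p, the closest pair of means among the dim probes. For Krt19 the levels were 6.94 ± 0.18 in 15p and 6.80 ± 0.042 in 0p, with single arrays from 6.77 to 7.11 in 15p and from 6.64 to 7.03 in 0p. Krt19 in 0p cells was lowest on the forward array of replicate 2 and highest on the swapped array of that replicate.

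**Figure D2:**
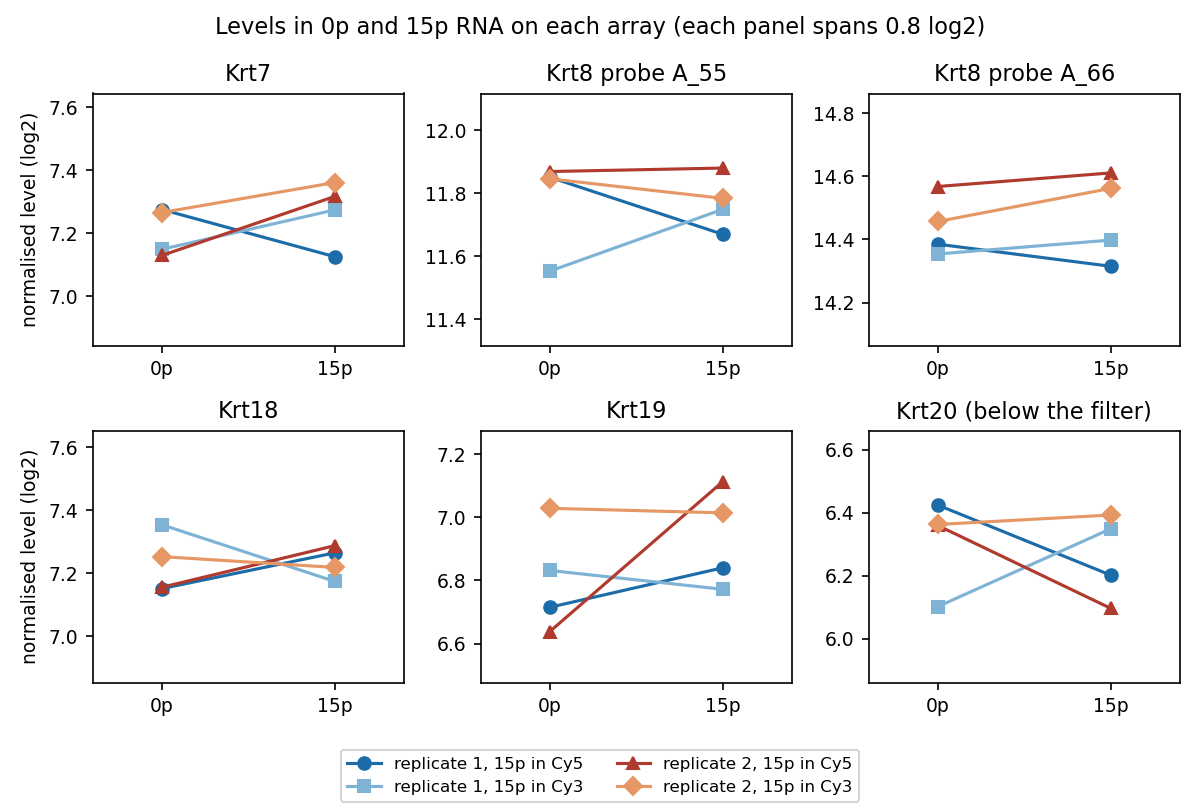
Normalised log2 level of each probe in 0p and 15p RNA, with a line joining the RNAs of one array; panels have their own level but the same span of 0.8 log2. Lines rise and fall within each panel, and the steepest rise is Krt19 on the forward array of replicate 2, from 6.64 to 7.11.

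No simple keratin passed the test of 15p against 0p. Across all 17374 genes tested, 0% were called higher and 0% lower at an adjusted p of 0.05 (limma on the 2 replicate values, Benjamini-Hochberg adjustment; 0 genes in each direction), and 6.3% (1095 genes) had an unadjusted p under 0.05. Of the 5 simple keratins 4 could be tested, and 0 of these 4 had an unadjusted p under 0.05. Their mean log2 ratios of 15p over 0p ran from 0.0078 to 0.13, with a median of 0.047, against a median of 0.0025 over all genes tested. All 4 means were above 0, as were those of 51.4% of genes, and 0 of the 4 had the same sign on all 4 arrays, against 6.78% of genes. Only Krt19 had the same sign in both replicate means (1 of 4), against 57% of genes. The forward and swapped arrays of replicate 1 had opposite signs for 4 of 4, against 70% of genes.

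Among the type II keratins, Krt8 had log2 ratios of -0.070 and 0.043 in replicate 1, with 15p in Cy5 and then in Cy3, and 0.043 and 0.10 in replicate 2 in the same order. Only the forward array of replicate 1 lay below 0. The mean was 0.030 ± 0.062 (SD, n = 2), with a 95% interval from -0.094 to 0.15 and an adjusted p of 0.916. In fold terms the interval ran from 0.937 to 1.11. The Krt8 ratio was 0.090 under median centring in place of loess, 0.059 without the forward array of replicate 1 and 0.0018 without the forward array of replicate 2, and was not called in any of these fits.

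The other Krt8 probe gave -0.18 and 0.20 in replicate 1 and 0.011 and -0.062 in replicate 2. Its mean was -0.0089 ± 0.023, of the opposite sign to that of the brighter probe. The means of the 2 probes differed by 0.039. The median range from lowest to highest probe of one gene was 0.056 (3590 genes with several probes). That range tends to be wider where a gene has more than 2 probes.

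Krt7 gave -0.15 and 0.12 in replicate 1 and 0.19 and 0.095 in replicate 2. One array lay below 0 and the rest above it. The mean was 0.064 ± 0.11, with a 95% interval from -0.067 to 0.20 and an adjusted p of 0.835. Without the forward array of replicate 2 the Krt7 ratio was -0.020, and without that of replicate 1 it was 0.15 (fits of 3 arrays with a dye term).

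Among the type I keratins, Krt18 gave 0.11 and -0.18 in replicate 1 and 0.13 and -0.034 in replicate 2. It was above 0 on both forward arrays and below 0 on both swapped arrays. The mean was 0.0078 ± 0.058, with a 95% interval from -0.12 to 0.13 and an adjusted p of 0.978. Of all genes tested, 91% had a mean ratio further from 0. Without the swapped array of replicate 2 the Krt18 ratio was -0.029, and without that of replicate 1 it was 0.044.

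Krt19 had the largest mean ratio of the simple keratins, and it rested on 1 array. It gave 0.13 and -0.060 in replicate 1 and 0.48 and -0.015 in replicate 2, so 1 array stood well above the other 3. The mean was 0.13 ± 0.14, with a 95% interval from -0.0074 to 0.27 (fold 0.995 to 1.21), an unadjusted p of 0.0610 and an adjusted p of 0.749. Of all genes tested, 7.18% had a mean ratio further from 0.

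The size of the Krt19 ratio depended on the arrays and on the signals used. Without the forward array of replicate 2 it was 0.044. Without the forward array of replicate 1 it was 0.22 and was called (adjusted p = 0.0068, limma on 3 arrays with a dye term), but that fit called 3120 genes with a common spread for all genes. The signals processed by the scanner software differ in both background correction and dye normalisation. They gave a Krt19 ratio of 0.40, with an unadjusted p of 0.0345 and an adjusted p of 0.834 (limma). Without the filter on dim probes the ratio stayed at 0.13, with an unadjusted p of 0.0455 and an adjusted p of 0.709 (limma). The side of 0.05 on which the unadjusted p fell thus depended on the processing. Krt19 was the member whose signal came nearest to the controls among those tested. The main fit added an offset of 50 to both signals, which draws ratios of dim probes toward 0. For scale, the processed signals of Krt19 ran from 14.8 to 35.1. The intervals of Krt7, Krt18 and Krt19 therefore do not bound the fold that would be seen without the offset. The share of the offset in these ratios was not tested.

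The software's own error model gave Krt19 a p of 2.5e-05 on the forward array of replicate 2, where its deposited ratio of 15p over 0p was 1.25 on the log2 scale. On the swapped array of replicate 2 the deposited ratio was 0.061 with a p of 0.786. The first array had a p under 0.01 for 7.22% of gene spots, against 0.293% to 1.61% on the others. No other simple keratin probe had a p under 0.186 by that model on any array.

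Krt20, given without a test, had -0.22 and 0.25 in replicate 1 and -0.26 and 0.030 in replicate 2. Its ratios were below 0 on both forward arrays and above 0 on both swapped arrays, the reverse of Krt18 and Krt19. Both channels were at background on 3 of these arrays, so these ratios compare background signals there.

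**Figure D3:**
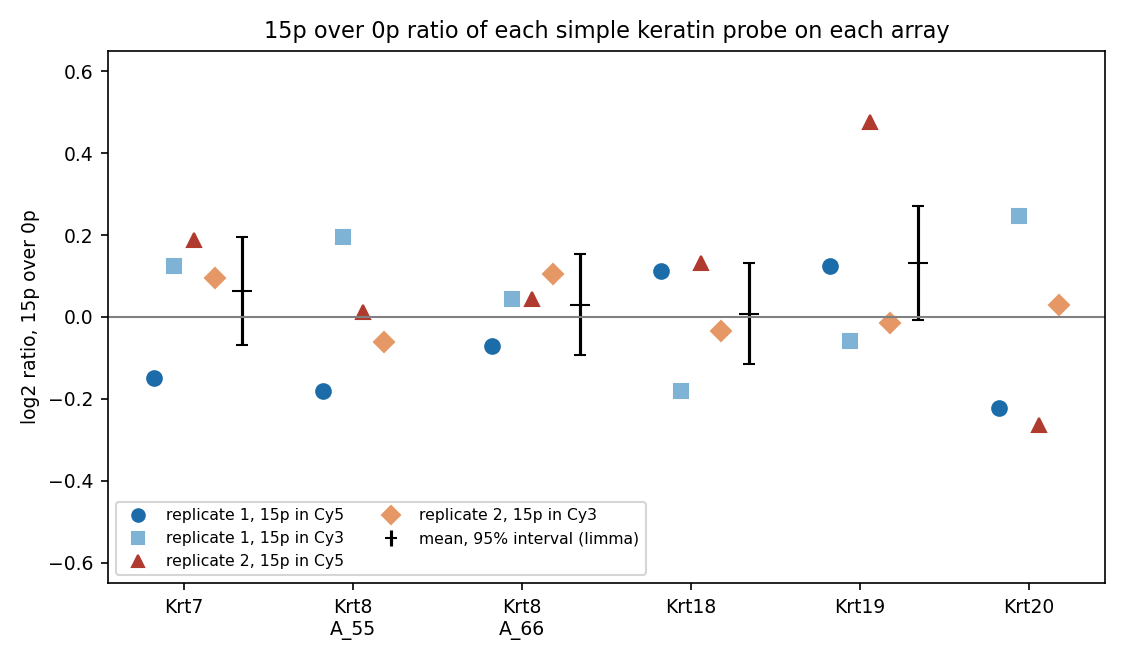
Log2 ratio of 15p over 0p on each array for the 6 probes, with the mean and its 95% interval (black) for the probe that stood for each tested gene. All 4 intervals include 0, and the point furthest from 0 is Krt19 at 0.48 on the forward array of replicate 2.

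Krt8, read on its brighter probe, and Krt18, which pair in the filament, mostly differed in sign over the arrays. Their ratios had the same sign on 1 of 4 arrays, the forward array of replicate 2. The dimmer Krt8 probe had the sign of Krt18 on both arrays of replicate 2 and the opposite sign on both of replicate 1. Krt18 was dim and neither gene was called, so these signs do not show whether the partners changed together. The root mean square difference between them over the 4 arrays was 0.166, against a median of 0.156 between Krt8 and any other tested gene. Krt7 and Krt8, both type II, differed by 0.0919, the smallest value among the 6 pairs of tested members. Krt8 and Krt19 were the furthest apart.

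The spread of the 4 arrays was usual for Krt7 and Krt18, narrow for Krt8 and wide for Krt19. The range over arrays was 0.18 for Krt8, 0.31 for Krt18, 0.34 for Krt7 and 0.53 for Krt19. The median over all genes tested was 0.32, and 83.5% of genes had a larger range than Krt8 and 16.8% a larger one than Krt19. Half-widths of the 95% intervals were 0.12 to 0.14 for the 4 members, and the median over genes was 0.12. These widths rest mostly on the spread pooled over genes.

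A dye term, which measures Cy5 over Cy3 whichever RNA was in Cy5, was fitted beside the ratio of 15p over 0p. It was called for 0.46% of genes (80 of 17374; limma on 4 arrays, adjusted p under 0.05), and for none of the 4 tested simple keratins. Krt19 had a dye term of 0.17 on the log2 scale (adjusted p = 0.275) and Krt18 0.11 (adjusted p = 0.325). For both, this is larger than the ratio of 15p over 0p itself, and both had opposite signs on forward and swapped arrays in each replicate (2 of 4 members, against 32.3% of genes). The unadjusted p of the Krt19 dye term was 0.0473, and 17.9% of genes had one under 0.05. Krt7 had -0.046 and Krt8 -0.044, with adjusted p-values of 0.744 and 0.690. These are also the mean ratios of 15p over 0p that the 4 arrays would give if the dye labels of both swapped arrays were exchanged. The arrays of a pair are technical, so this test covers the spread between arrays.

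**Figure D4:**
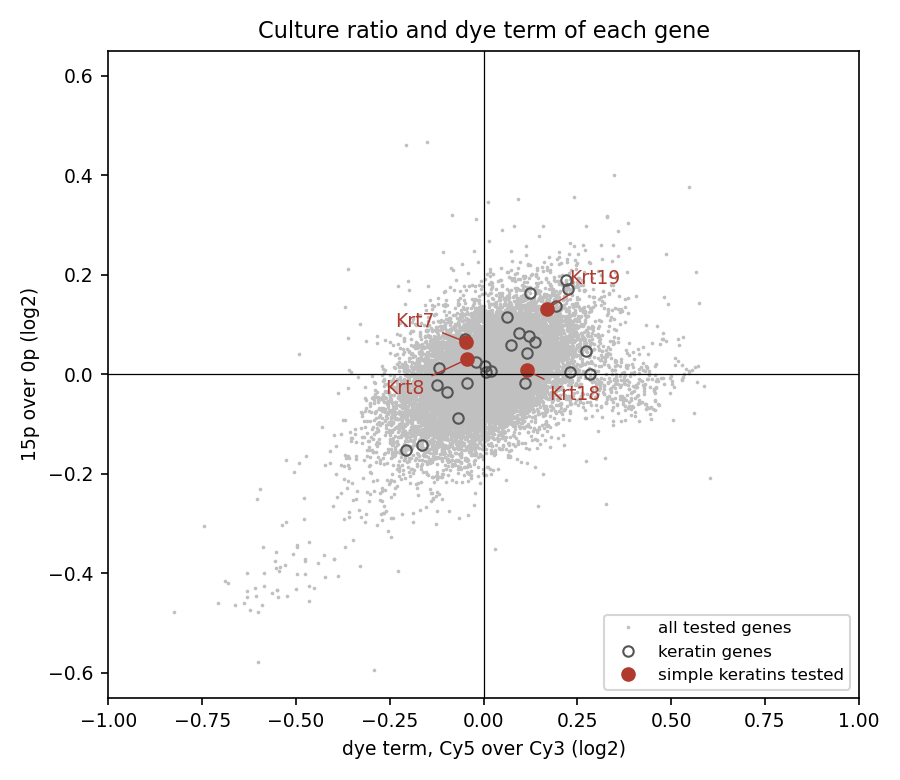
Mean log2 ratio of 15p over 0p against the log2 dye term (Cy5 over Cy3) for the 17374 genes tested (grey), the keratin genes among them (open circles) and the 4 tested simple keratins (red). Krt7 and Krt8 lie left of 0 and Krt18 and Krt19 right of 0 on the dye axis, and all 4 lie within the cloud of other genes.

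The genes with the most similar ratios over the 4 arrays were named by their root mean square difference. For Krt8 these were Cpsf7 (0.0059), Arhgdib (0.0098) and Rnpepl1 (0.011), and for Krt7 Stoml1 (0.0083), Gm11449 (0.011) and Gm5649 (0.014). For Krt18 they were Neil3 (0.018), a transcript named only as ENSMUST00000087545 (0.018) and Gm12504 (0.019), and for Krt19 Pcgf2 (0.030), Grb7 (0.031) and Mr1 (0.032). The median over all other genes was 0.156 for Krt8, 0.178 for Krt18, 0.202 for Krt7 and 0.266 for Krt19.

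Simple keratins stood among the other keratins, of which none was called. Over all 30 keratin genes tested, members included, mean log2 ratios ran from -0.15 (Krt13) to 0.19 (Krt14), with a median of 0.027, and 23 were above 0. The ratio furthest from 0 lay on the forward array of replicate 2 for 18 of the 30, against 56.8% of all genes. Basal keratins had 0.19 ± 0.12 for Krt14, 0.17 ± 0.033 for Krt15 and 0.00042 ± 0.036 for Krt5. Here and below, ± is the SD of the 2 replicate means, in which opposite values of a dye-swapped pair cancel. It can be far smaller than the spread of the arrays, as for Krt5, which ran from -0.39 to 0.34 on single arrays. Of 4 stress keratins, known from wounded skin, 3 were above 0, with 0.16 ± 0.035 for Krt6a, 0.14 ± 0.052 for Krt16 and 0.083 ± 0.12 for Krt17. The other, Krt6b, named after its values were seen, had -0.089 ± 0.029. Suprabasal keratins had at most 0.046 ± 0.14 (Krt78) and 0.044 ± 0.058 (Krt80), with 4 of 6 tested. Of 3 mucosal keratins 1 was tested, Krt13 at -0.15 ± 0.19.

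Genes that work with simple keratins held no call, as 0% of all genes tested were called in either direction, so their values are a description. Of 16 proteins that link or bind keratin filaments, 16 were tested and none was called (6 above 0 and 10 below, median -0.028), with Ppl, which encodes periplakin, at -0.16 ± 0.24 and Dsp, which encodes desmoplakin, at -0.14 ± 0.19. Of 20 transcription factors known to act on simple keratin genes 19 were tested (11 above 0, 8 below, median 0.0030), with Elf3 at 0.15 ± 0.072 and Klf4 at -0.11 ± 0.083. Of 17 surface and junction genes of simple epithelium 13 were tested (10 above 0, 3 below, median 0.044), with Cldn4 at -0.18 ± 0.65, Spint2 at 0.13 ± 0.13, Epcam at 0.0036 ± 0.24 and Cdh1, E-cadherin, at -0.016 ± 0.026. Of 13 other intermediate filament genes 7 were tested (4 above 0, 3 below, median 0.042), with Ina at 0.082 ± 0.061, Lmna at 0.064 ± 0.048 and Vim, the filament of mesenchymal cells, at -0.014 ± 0.037.

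Markers of other cells that make simple keratins are likewise described by their values, with no call among them against 0% of all genes tested. Of 18 Merkel cell markers other than keratins, 8 were never above background on any array, Atoh1, the factor that specifies these cells, among them. The 8 tested, Sox2 and Isl1 among them, were above background on 4 of 4 arrays in both RNAs. Atoh1, Sox2 and Isl1 are named outside the rule for naming genes. These 8 had a median ratio of 0.016, with Cplx2 at -0.18 ± 0.32 and Rab3c at 0.11 ± 0.24. The linear levels of the 18 summed to 31960 to 65780 in 15p and to 45920 to 58060 in 0p, ranges that overlap. Such a sum is weighted to the brightest probes and includes the 8 never above background, so it does not measure Merkel cells. The ranges also leave out that each array held both RNAs. Of 8 sweat gland markers 6 were tested (median -0.032; Aqp5, 0.092 ± 0.18; Foxi1, 0.066 ± 0.00018), and of 10 markers of sebaceous gland and isthmus 8 (median -0.0078; Scd1, -0.058 ± 0.098; Lrig1, -0.052 ± 0.080). Of 7 urothelium and gut markers, tissues known for Krt20, 3 were tested (median 0.035; Fabp2, 0.053 ± 0.0070; Upk1a, 0.035 ± 0.038). For the sorted cells and other skin cells, the tested markers were 5 of 10 bulge markers (Sox9, -0.38 ± 0.60; Id2, -0.096 ± 0.040), 1 of 6 fibroblast markers (Col3a1, 0.088 ± 0.044), 2 of 6 immune and endothelial markers (Pecam1, 0.060 ± 0.086; Cd3e, -0.043 ± 0.28) and 3 of 5 melanocyte markers (Mlana, 0.083 ± 0.020; Mitf, -0.044 ± 0.031).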

How the data were processed

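The 4 deposited scanner files give, for each dye, intensity as the spot mean and the median of its surroundings, extracted with Agilent Feature Extraction 10.7.3.1 per the file headers and the submitters' processing notes. Their processed intensity, also deposited, is background-subtracted and dye-normalised, the deposited log10 ratio is Cy5 over Cy3, and its p-value comes from the software's error model, per the file headers. Other deposited columns are flags. The deposited value table holds the same log10 ratios (largest difference 0.00449, column medians 0), not turned for the dye swap.

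Intensities were corrected with limma 3.58.1 in R 4.3.3 (normexp, offset 50) and normalised by loess within arrays, and control and irregular spots (154 to 286 of 43020 an array) were left out; 0 spots were saturated. The filter on dim probes required the above-background flag on 4 of 4 arrays in 15p or in 0p and kept 21675 of 39429, and the brightest kept probe stood for its gene. Symbols came from RefSeq (GRCm38.p6) by accession for 26055 probes. Ratios were turned to 15p over 0p, arrays of a pair averaged, and the 2 replicate values tested for a mean of 0 by moderated linear models (lmFit, eBayes, two-sided, prior degrees of freedom 8.89, residual 1). Channel levels were also scaled between arrays (Aquantile). Pairing comes from the sample titles. Same-numbered arrays' deviations from their dye orientation's mean correlated at -0.258 across genes. Each replicate had its own slide and scan, so slide, scan and replicate cannot be told apart.

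Members and gene lists were chosen with earlier results of these data known. Named are all members, the 3 genes nearest to each, and from each list the called genes or else the 2 with the largest ratios, plus Krt5, Krt14, Krt15, Krt6a, Krt16, Krt17, Vim, Epcam and Cdh1. The number of arrays limits the precision. The script was tested on simulated data.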

Additional observations from a re-analysis of the deposited data

Results flagged for a closer look

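Krt18 and Krt19 had ratios of 15p over 0p above 0 on both forward arrays (15p in Cy5) and below 0 on both swapped arrays. The mean of the first minus the mean of the second was 0.23 for Krt18 and 0.34 for Krt19 on the log2 scale. Krt20 showed the reverse, with a difference of -0.38. Such an opposition of the dye orientations over all 4 arrays was found for 32.3% of genes tested. The dye term, which is this difference divided over both orientations, was not called for Krt18 (adjusted p = 0.325) or Krt19 (adjusted p = 0.275, limma). For Krt20, below the filter, the difference was not tested.

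Krt20 entered no comparison in the main fit. On the swapped array of replicate 2 it was well above background in both RNAs, at 1.23 times the 95th percentile of the negative controls in 15p.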

How the results depend on the processing

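Of 13 alternative fits 8 also called 0 genes between 15p and 0p. These include the fit with the replicate block as a fixed term and a dye term in each replicate, which repeats the main test by construction (0 genes; Krt19 at 0.13). They also include fits on the processed signals and on the deposited value table. Those fits use nearly the same ratios (Krt19 at 0.398 in each), so they are not separate evidence. A random block could not be estimated with so few arrays. The count was 1 without the filter on dim probes, and, in fits chosen after the data were seen, 60 with crossed pairing, 3120 without the forward array of replicate 1, 88 without the forward array of replicate 2 and 1 without the swapped array of replicate 2. Krt19 was called in the fit without the forward array of replicate 1 (0.22), which is 1 of its 12 alternatives, and in that fit Krt7 reached its highest value, 0.15 (adjusted p = 0.0864, limma). Krt7 turned sign without the forward array of replicate 2 (-0.020), and Krt18 without the swapped array of that replicate (-0.029). Krt8 did so from its dimmer probe, A_55_P2128501 (-0.0089). All of them did so again without replicate 2. Each of these values lay inside the 95% interval of its gene. Krt7, Krt8 and Krt18 were not called in any fit that gave values for them. The crossed pairing gave a count of genes only. Krt20 in the fit without the filter had -0.052 (adjusted p = 0.887). Without 1 replicate, values with no test ran from -0.012 to 0.14 for Krt7, -0.014 to 0.074 for Krt8, -0.033 to 0.049 for Krt18 and 0.033 to 0.23 for Krt19. The count of 80 genes with a called dye term was 0 with processed signals, 11658 with median centring, 289 without the filter and 44 with the mean of a gene's probes; the cause was not tested. Signal over background and the offset limit the ratios of Krt7, Krt18 and Krt19, and Krt20 was not measurable on 3 arrays.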
